A study of Mus musculus with 6 samples.

Results

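The genes described here are 10 heat shock chaperones, taken by gene name from the 55394 genes measured in 6 SMART-seq libraries. A group of 5 is known to be induced by stress (Hspa1a, Hspa1b, Hsp90aa1, Hsph1 and Dnajb1), and the other 5 are made at high levels without stress (Hspa8, Hsp90ab1, Dnaja1, Hspd1 and Hspe1). The set is named for cytosolic chaperones, but Hspd1 and Hspe1 encode the chaperonin of the mitochondrial matrix, so they are treated below as a mitochondrial pair. All 10 passed the filter on low values (1 FPKM or more in at least 3 of the 6 libraries, FPKM being fragments scaled by transcript length and by mapped fragments).

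Each library came from 1000 group 2 innate lymphoid cells (ILC2s) sorted from the lungs of neonatal wild type mice on the C57BL/6 background. In the Abx group (n = 3 libraries) the pups were born to dams given an antibiotic cocktail of ampicillin, metronidazole, neomycin and vancomycin in the drinking water from day 10 to day 14 of gestation, and in the Con group (n = 3) to control dams. ILC2s are tissue-resident lymphocytes without antigen receptors that make type 2 cytokines. They were sorted as CD45+, lineage-negative, CD90.2+, CD25+ cells after enzymatic digestion of the lung, a step that both groups share. The age of the pups used for sequencing is not given in the sources used here. Nothing states whether the libraries of a group came from separate litters, so the p-values below measure only the spread between these libraries.

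Heat shock proteins bind unfolded stretches of other proteins and use ATP to help them fold. HSP70 proteins take substrates from J-domain partners, release them with the help of nucleotide exchange factors, and can pass them to HSP90, which completes the folding of many kinases and receptors. When unfolded proteins build up, heat shock factor HSF1 binds heat shock elements, inverted repeats of the unit nGAAn, and drives the inducible members. The constitutive members serve the folding load of a normal cell. The class names refer to levels without stress, and whether HSF1 also acts on constitutive members was not tested. In dissociated and sorted tissue, induction of heat shock genes during handling is a known complication.

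The 250 bases upstream of the RefSeq start sites of these genes were searched for the 2-unit element, GAANNTTC or TTCNNGAA. Each form reads the same on both strands, and the forms may overlap. RefSeq windows (build GRCm38.p6) were matched for 7 of the 10 genes, and Hspa8, Hsp90aa1 and Hsp90ab1 had none. The upstream window of Hspa1a is shown whole because it holds the classic inducible HSP70 promoter and overlaps no annotated exon. It lies at chr17:34972157-34972406 on the minus strand and is written in the direction of transcription, with the 2-unit match in capitals, beginning 104 bases before the start.
Hspa1a: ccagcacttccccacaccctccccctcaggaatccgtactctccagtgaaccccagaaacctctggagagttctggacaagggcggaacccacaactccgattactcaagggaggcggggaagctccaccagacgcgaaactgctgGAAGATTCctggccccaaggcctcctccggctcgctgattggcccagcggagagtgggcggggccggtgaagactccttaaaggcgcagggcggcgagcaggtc

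The same window of Hspa1b differed at 3 of 250 positions, counted from 1 at the upstream end with the base of Hspa1a first (C44T, T47C and T249G), and its match was the same. The other matches are shown in stretches of 30 bases, again with the matched letters in capitals, so that genes with differences of opposite sign can be compared. The stretch of Hspe1 lies at chr1:55088053-55088082 (plus strand), that of Dnaja1 at chr4:40722333-40722362 (plus strand) and that of Hsph1 at chr5:149636351-149636380 (minus strand).
Hspe1: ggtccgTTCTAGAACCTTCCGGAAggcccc
Dnaja1: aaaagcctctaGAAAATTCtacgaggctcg
Hsph1: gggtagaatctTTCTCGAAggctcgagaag

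In Hspe1 3 overlapping matches ran together and held 2 overlapping copies of the 3-unit element, in which a further unit continues the inverted repeat at the same spacing. The same stretch stands before one of the alternative start sites of Hspd1, because Hspd1 and Hspe1 are transcribed in opposite directions from starts that overlap by 112 bases on chromosome 1. Hsph1 held 1 match, and neither window of Dnajb1 held one. Of 3 start sites of Dnaja1, only the most upstream had a match before it, in a window that overlaps annotated exons over 218 of its 250 bases. The Hspe1 window, and the Hspd1 window with the same stretch, overlap annotated exons over all 250 bases. For the Hsph1 windows the overlap was 40 and 61 bases. Of 32851 upstream windows of the same length, 12.8% held either 2-unit form and 0.466% the 3-unit form. These letters describe the windows and are not a measure of factor binding. Matches occurred in both classes, before Hspa1a, Hspa1b and Hsph1 and before Hspd1, Hspe1 and Dnaja1, while the inducible Dnajb1 had none. The classes therefore do not divide genes with the element from genes without it.

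The libraries held 420941 to 449523 summed FPKM in Con versus 431613 to 489262 in Abx, with 8574 to 9203 and 7074 to 8193 genes at 1 FPKM or more. The files give no read depth, and counting error could not be estimated. The ILC2 markers Gata3, Rora, Il7r, Icos, Id2, Klrg1, Areg and Arg1 were present in every library, while Il1rl1 was at 2.94 FPKM or below in every library. Of 12 ILC2 markers 11 were tested, 4 with a fitted difference above 0 and 7 below, and their summed level was 2820 to 3224 FPKM in Con versus 2094 to 2691 in Abx. Icos, Areg, Kit and Arg1 were lower in Abx without overlap and at an unadjusted p under 0.05, and none was higher (adjusted p = 0.091 for Icos and for Areg, limma). Of the other cell types, summed B cell, T cell and NK cell markers were higher in Abx without overlap, and the other sums overlapped. B cell markers summed to 542 to 710 FPKM in Con versus 1178 to 1429 in Abx (7 of 8 tested higher, with Pax5 at 0 to 2.33 and Ebf1 at 0 to 0.09). Ms4a1, Cd74, Ighm and Igkc were higher in Abx without overlap. Ighm was at 141.32, 109.49 and 159.26 FPKM in Con versus 423.46, 357.66 and 428.74 in Abx (adjusted p = 0.091, limma). Cd79b was lower without overlap, at 69.46, 116.78 and 69.78 FPKM in Con versus 56.41, 31.01 and 57.43 in Abx. T cell markers summed to 186 to 214 and 445 to 671 FPKM (6 of 7 tested higher, with Cd4 at 0 in 5 libraries). Cd3g, Cd3d, Cd8b1 and Lck were higher in Abx without overlap, and Trac had a fitted difference below 0. Cd3d was at 8.32, 6.1 and 4.46 FPKM in Con versus 63.81, 37.15 and 107.99 in Abx (adjusted p = 0.091, limma). NK cell markers summed to 2.45 to 27.1 and 215 to 235 FPKM, all but a small part of it Gzma in Abx, where Con held Gzma at 13.78, 10.77 and 0, with Klrb1c, Prf1 and Tbx21 at 0. For Gzma the adjusted p was 0.091 (limma). Erythroid markers summed to 6422 to 14823 and 3166 to 8659 FPKM (0 of 4 tested higher). Myeloid sums were 131 to 366 and 176 to 381 FPKM with Ly6g at 0 and 2 of 3 tested higher, and epithelial sums 24.6 to 1158 and 55.7 to 142 FPKM with Sftpb and Cdh1 at 0 and 1 of 3 tested higher. Endothelial markers summed to 5.1 to 10.8 and 6.14 to 21.1 FPKM (1 tested, higher), and fibroblast markers to 0.53 to 0.86 and 0.58 to 2.81 FPKM (none tested). No marker was called. Every cell type makes these chaperones, and the part of other cells in the values below was not tested. In bulk samples, fewer cells of a type and less RNA per cell cannot be told apart.

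Levels of the chaperones ranged widely, with the constitutive HSP70 and both HSP90 genes at the top. The 10 genes together made up 0.303%, 0.275% and 0.373% of summed FPKM in Con versus 0.433%, 0.288% and 0.415% in Abx, so the groups overlapped. Hspa8, Hsp90ab1 and Hsp90aa1 took ranks 1, 2 and 3 of the 10 in all 6 libraries. By mean level the order continued with Hspd1, Hspe1, Dnaja1, Dnajb1, Hspa1a, Hspa1b and Hsph1. Dnaja1 changed place between the groups: it was above Hspe1 and Dnajb1 in all 3 Con libraries and below both in all 3 Abx libraries. Hspd1 was above Hspe1 in 5 libraries and Hspa1b above Hsph1 in 5. The other 5 neighbouring pairs kept their order in all 6. Mean levels lay at the 98.9th percentile of the 8718 tested genes for Hspa8, at the 54.5th for Hspa1b and at the 37.0th for Hsph1.

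**Figure D1:**
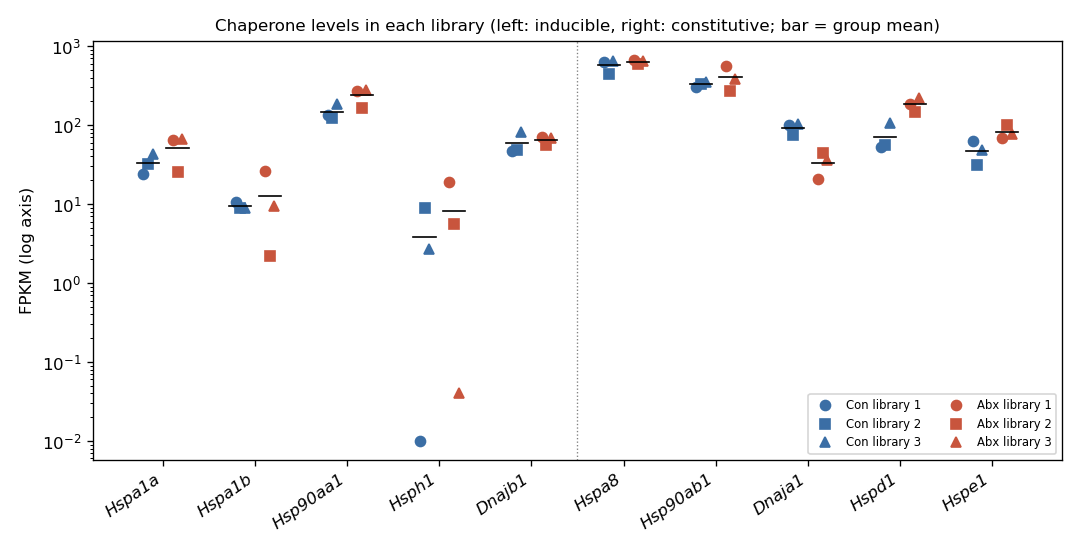
FPKM (log axis) of each chaperone gene in the 3 Con and 3 Abx libraries, with group means as bars and inducible genes left of the dotted line. Hspa8 was the highest in every library, Dnaja1 was lower and Hspd1 and Hspe1 were higher in all Abx libraries than in all Con libraries, and Hsph1 spread from 0.01 to 19 FPKM.

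The comparison of Abx with Con asks whether antibiotic exposure of the dam changed chaperone transcripts in neonatal ILC2s. Calls were made by limma, requiring a fold change over 2 with adjusted p below 0.05. None of the 10 genes was called, where 0.0574% of all tested genes were (5 of 8718), 0.0459% higher in Abx and 0.0115% lower. At an unadjusted p under 0.05, 4 of the 10 passed (Hspd1, Hspe1 and Hsp90aa1 higher in Abx and Dnaja1 lower), against 11.0% of all genes. That count was 2 without Con 2, without Abx 3, under quantile normalization and after rescaling to equal totals. The groups did not overlap for 3 of the 10 (Hspd1 and Hspe1 higher, Dnaja1 lower), against 17.2% of all genes. By direction, 4.74% of all genes were higher and 6.25% lower at the unadjusted threshold, and 8.49% were higher and 8.73% lower without overlap. The fitted difference was above 0 for 8 of the 10 genes, 4 of 5 in each class, against 47.0% of all genes. Its median was 0.40 over the 10 genes, 0.55 over the inducible and 0.24 over the constitutive class, and -0.06 over all genes, on the scale of log2(FPKM + 1), which understates the change of low genes. Without Abx 1 the count above 0 was 6 and the median over the 10 genes 0.13. The median was 0.21 without Con 1, 0.28 without Abx 3 and 0.57 without Con 3 or without Abx 2.

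**Figure D2:**
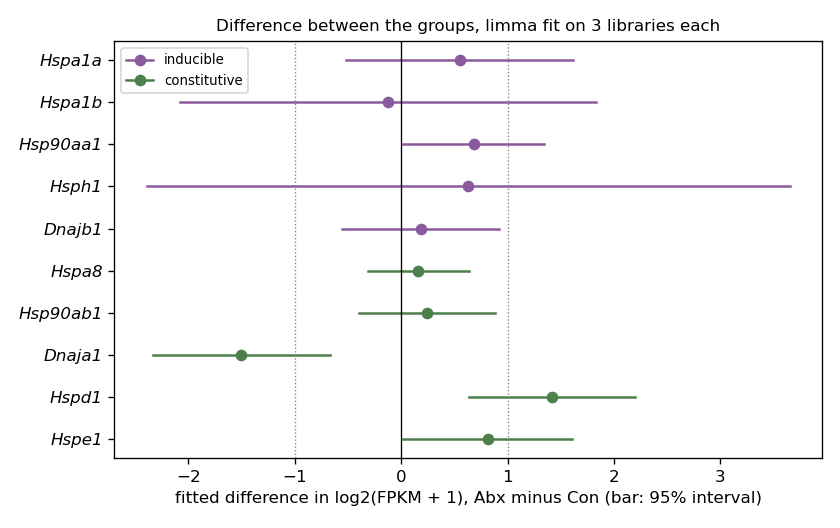
Fitted difference in log2(FPKM + 1), Abx minus Con, for each chaperone gene (limma, 3 libraries each), with 95% intervals as bars and dotted lines at a fold change of 2. The intervals of Hsp90aa1, Hspd1 and Hspe1 lay above 0 and that of Dnaja1 below 0 before adjustment, while Hspa1b and Hsph1 had the widest intervals.

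The largest differences among the 10 were in opposite directions, in the mitochondrial chaperonin and in a cytosolic J-domain protein. Hspd1 (ENSMUSG00000025980, chr1:55077835-55088243, minus strand), the barrel-forming HSP60, was at 53.03, 55.29 and 105.98 FPKM in Con, against 187.4, 147.68 and 222.22 in Abx. All Abx libraries lay above all Con libraries, the closest being Con 3 and Abx 2. The means were 71.4 ± 29.9 and 186 ± 37.3 FPKM (SD, n = 3 each), a ratio of 2.60, and the fitted log2 difference was 1.42 ± 0.33 (SE, adjusted p = 0.127, limma). Hspe1 (ENSMUSG00000073676, chr1:55088132-55091307, plus strand), the HSP10 lid of the same barrel, was at 62.18, 31.62 and 48.52 FPKM in Con, against 67.66, 101.64 and 77.73 in Abx. The groups again did not overlap, although Con 1 and Abx 1 lay close together. Its fitted log2 difference was 0.81 ± 0.34 (SE, adjusted p = 0.440, limma), from means of 47.4 ± 15.3 and 82.3 ± 17.5 FPKM (SD, n = 3 each).

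Barrel and lid of the chaperonin were not held in a fixed ratio. Hspd1 to Hspe1 was 0.853, 1.75 and 2.18 in Con versus 2.77, 1.45 and 2.86 in Abx, and the groups overlapped. The pseudogene Hspd1-ps3, whose transcript contains 38.0% of the 50-base stretches of Hspd1, was at 2.01, 3.22 and 3.43 FPKM in Con versus 7.41, 12.82 and 7.35 in Abx, or 3.24% to 8.68% of Hspd1. Like Hspd1, it was higher in all Abx libraries than in all Con libraries. Among the Abx libraries it was highest in Abx 2, where Hspd1 was lowest. How reads were divided between such copies is not given in the sources used here, so Hspd1 and Hspe1 carry that uncertainty. The share of 50-base stretches found in transcripts of other genes was also high for Hsp90aa1 (47.5%) and Hspa8 (39.4%), lower for Dnaja1 (20.6%), and 3.44% or less for Hsp90ab1, Dnajb1 and Hsph1.

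Dnaja1 (ENSMUSG00000028410, chr4:40722150-40737149, plus strand), a cytosolic J-domain partner that hands substrates to Hspa8, was at 100.83, 75.62 and 101.95 FPKM in Con. In Abx it was at 20.54, 43.74 and 35.59 FPKM, and all 3 values lay below every Con library. The means were 92.8 ± 14.9 and 33.3 ± 11.8 FPKM (SD, n = 3 each), so Con was 2.79 times Abx. The fitted log2 difference was -1.50 ± 0.36 (SE, adjusted p = 0.128, limma), with a 95% interval from -2.34 to -0.67 before adjustment. In order of level among the 10 genes, Dnaja1 moved from ranks 4, 4 and 5 in Con to ranks 9, 7 and 8 in Abx.

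Dnajb1 (ENSMUSG00000005483, chr8:83608193-83612653, plus strand), the inducible J-domain partner of HSP70, did not separate the groups. It was at 46.6, 48.58 and 81.49 FPKM in Con, against 70.44, 56.47 and 68.42 in Abx, with overlapping groups and a fitted log2 difference of 0.18 ± 0.32 (SE, adjusted p = 0.881, limma). With a library left out it ranged from 0.04 (without Con 1) to 0.44 (without Con 3). The ratio of Dnajb1 to Dnaja1 was 0.462, 0.642 and 0.799 in Con versus 3.43, 1.29 and 1.92 in Abx. Dnaja1 was therefore the more abundant of the pair in each Con library and Dnajb1 in each Abx library. This ratio is taken within a library and does not depend on scaling between libraries.

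None of the cytosolic HSP70 genes separated the groups. Hspa8 (ENSMUSG00000015656, chr9:40800984-40810087, plus strand), the constitutive HSC70, was at 630.53, 446.12 and 647.21 FPKM in Con, against 662.08, 589.92 and 654.61 in Abx. The groups overlapped, and apart from the low Con 2 the values lay close together. Its fitted log2 difference was 0.16 ± 0.20 (SE, adjusted p = 0.836, limma), with a 95% interval from -0.31 to 0.64. The spread of Hspa8 within groups was at the 4.62th percentile of all tested genes, the lowest of the 10, where Hspa1a was at the 34.4th and Hspa1b at the 61.7th.

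Hspa1a (ENSMUSG00000091971, chr17:34969190-34972156, minus strand), an inducible HSP70, was at 24.35, 32.21 and 42.49 FPKM in Con, against 63.91, 25.49 and 65.72 in Abx. Abx 1 and Abx 3 lay above all Con libraries and Abx 2 lay among them, and the fitted log2 difference was 0.55 ± 0.46 (SE, adjusted p = 0.732, limma). It was 0.99 without Abx 2 (adjusted p = 0.250, limma) and 0.32 to 0.35 without Con 1, Abx 1 or Abx 3. Hspa1b (ENSMUSG00000090877, chr17:34956436-34959238, minus strand), its near-identical neighbour 9951 bases away, was at 10.69, 9.02 and 9.01 FPKM in Con, against 25.95, 2.22 and 9.38 in Abx. Here Abx 1 was the highest and Abx 2 the lowest of the 6 libraries, and the fitted log2 difference was -0.13 ± 0.84 (SE, adjusted p = 0.977, limma). Without Abx 2 it was 0.67. Of the 50-base stretches in the transcripts of Hspa1a, 66.3% also occur in transcripts of other genes, mostly Hspa1b, and for Hspa1b the share was 62.3%. The division of reads between the copies is therefore uncertain, and their sum is the safer value. It was 35.04, 41.23 and 51.5 FPKM in Con versus 89.86, 27.71 and 75.1 in Abx. The sum was above Con in Abx 1 and Abx 3 and below it in Abx 2.

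Hsph1 (ENSMUSG00000029657, chr5:149614287-149636376, minus strand), the HSP110 that acts as an exchange factor for HSP70, was the least abundant and most variable of the 10. It was at 0.01, 8.89 and 2.71 FPKM in Con, against 19, 5.61 and 0.04 in Abx. Each group held a library near 0, and the spread within groups lay at the 91.7th percentile of all tested genes. The fitted log2 difference was 0.63 ± 1.3 (SE, adjusted p = 0.900, limma). It turned to -0.23 without Con 1 and to -0.35 without Abx 1.

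Both cytosolic HSP90 genes had higher means in Abx, and neither was called. Hsp90aa1 (ENSMUSG00000021270, chr12:110690605-110702728, minus strand), the inducible alpha form, was at 133.1, 122.04 and 183.17 FPKM in Con, against 269.03, 165.75 and 276.77 in Abx. Abx 2 lay below Con 3 and the other Abx libraries lay above all Con libraries. The means were 146 ± 32.6 and 237 ± 62.0 FPKM (SD, n = 3 each), and the fitted log2 difference was 0.68 ± 0.29 (SE, adjusted p = 0.438, limma). Hsp90ab1 (ENSMUSG00000023944, chr17:45567775-45573271, minus strand), the constitutive beta form, was at 302.91, 332.52 and 346.45 FPKM in Con, against 553.8, 272.35 and 382.73 in Abx. Abx 1 stood above the rest and Abx 2 was the lowest of all, and the fitted log2 difference was 0.24 ± 0.27 (SE, adjusted p = 0.813, limma). The beta form was the more abundant in every library. The ratio of alpha to beta was 0.439, 0.367 and 0.529 in Con versus 0.486, 0.609 and 0.723 in Abx, and the groups overlapped.

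Inducible and constitutive chaperones were then set against each other within each library. This contrast does not set HSF1 targets against other genes, because upstream matches to the element occurred in both classes. The mean log2(FPKM + 1) of the 5 inducible genes was 4.17, 4.85 and 4.91 in Con versus 5.87, 4.47 and 4.75 in Abx. For the 5 constitutive genes it was 7.19, 6.86 and 7.37 in Con versus 7.32, 7.34 and 7.45 in Abx. The inducible class thus lay below the constitutive class in all 6 libraries. The difference was -3.02, -2.01 and -2.46 in Con versus -1.45, -2.86 and -2.70 in Abx, with means of -2.49 ± 0.51 and -2.34 ± 0.77 (SD, n = 3 each). The groups overlapped and their means differed by 0.16, less than either SD, with Abx 1 alone above all Con libraries. Hsph1 had the widest spread of the 5 inducible genes, at 0.01 FPKM in Con 1, 0.04 in Abx 3 and 19 in Abx 1. It therefore weighs on these SDs and on the place of those libraries, and the difference without Hsph1 was not computed. As a share of the summed FPKM of the 10 genes, the inducible class held 15.7%, 19.0% and 20.3% in Con versus 23.1%, 18.1% and 23.4% in Abx. That share weights Hsp90aa1 most. Against Hspa8, Hsp90ab1 and Dnaja1 alone, without the mitochondrial pair, the difference was -3.90, -2.96 and -3.25 in Con versus -1.77, -3.12 and -2.97 in Abx. These groups also overlapped, and their means differed by 0.75. With Hspa8 and Hsp90ab1 alone as the constitutive class the means differed by 0.18, and with Dnaja1 counted as inducible by -0.59.

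A split of the constitutive class by compartment gave groups that did not overlap. The mean log2(FPKM + 1) of the mitochondrial pair was 5.87, 5.42 and 6.19 in Con versus 6.83, 6.95 and 7.05 in Abx. That of Hspa8, Hsp90ab1 and Dnaja1 was 8.07, 7.82 and 8.16 in Con versus 7.64, 7.59 and 7.71 in Abx. The first average contains Hspd1 and the second Dnaja1, so both restate the single-gene values, while the means of Hspa8 and Hsp90ab1 were not lower in Abx. The ratio of summed Hspa1a and Hspa1b to Hspa8 was 0.0556, 0.0924 and 0.0796 in Con versus 0.136, 0.0470 and 0.115 in Abx, which overlapped.

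**Figure D3:**
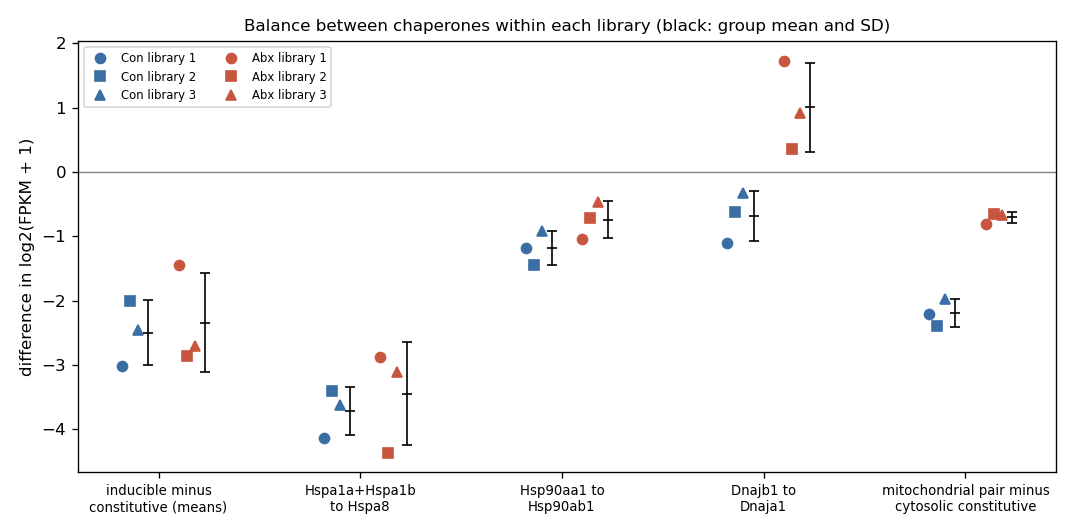
Balance between chaperones within each library as a difference in log2(FPKM + 1), for the 3 Con and 3 Abx libraries, with group means and SDs in black. Inducible minus constitutive overlapped between the groups (-2.49 ± 0.51 in Con versus -2.34 ± 0.77 in Abx), while Dnajb1 to Dnaja1 and the mitochondrial pair against the cytosolic constitutive genes did not.

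Over the 6 libraries, some chaperones varied together. The highest Pearson's r of log2(FPKM + 1) was 0.927 for Hsp90aa1 with Hspd1, then 0.894 for Hspa1a with Hsp90aa1 and 0.862 for Hspa1b with Hsp90ab1. The lowest of all pairs was -0.807 for Dnaja1 with Hspd1. Between them, r was 0.617 for Hspa1a with Hspa1b and 0.666 for Hspd1 with Hspe1. For Hsph1 with the other inducible genes it was 0.041 to 0.185. These are descriptions over 6 libraries that share group differences and scaling. Tested genes outside the family whose pattern was most like the inducible mean included Zfp830 (r = 0.986), Cav1 (0.981), Zfp280d (0.980) and Lep (0.978), out of 8708 compared. Each of these 4 was highest in Abx 1 and lowest in Con 1, as the inducible mean was.

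The regulators and known targets of the heat shock response showed no call either, in lists of related genes read from the same fit. HSF1 itself (Hsf1) was at 9.76, 7.17 and 6.61 FPKM in Con versus 14.25, 7.46 and 5.16 in Abx, with overlapping groups. Of 5 heat shock factors and binding proteins 2 were tested, Hsf1 and Hsbp1, the more abundant, and neither passed an unadjusted p under 0.05. Of 14 other HSF1 targets 10 were tested, 7 with a fitted difference above 0 and 3 below, with a median of 0.40 and none past the unadjusted threshold. Ubb, a polyubiquitin gene, was the most abundant of them at 3905.8 to 4646.8 FPKM in Con versus 3981.2 to 5295 in Abx. Bag3, a strongly heat-inducible exchange factor, was at 0.89, 2.02 and 0.80 FPKM in Con versus 10.42, 1.50 and 0.03 in Abx, so only Abx 1 stood out. Of 9 small heat shock proteins only Cryaa, a crystallin, was tested. It was at 4.47, 5.78 and 8.44 FPKM in Con versus 0.58, 0.12 and 0.29 in Abx (adjusted p = 0.131, limma), while the heat-inducible Hspb1 was at 3.08 FPKM or below in every library.

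Partners of HSP70 and HSP90 varied in both directions. Of 10 other HSP70 and HSP110 genes 6 were tested, 1 with a difference above 0 and 5 below (median -0.56). The one above was Hspa14, a ribosome-associated HSP70, at 11.46, 19.87 and 24.05 FPKM in Con versus 41.43, 40.13 and 45.98 in Abx (adjusted p = 0.263, limma). Hspa13, a microsomal HSP70, was at 4.73, 2.94 and 8.17 FPKM in Con versus 0.01, 2.01 and 0.07 in Abx (adjusted p = 0.313, limma). Hspa5, the HSP70 of the endoplasmic reticulum and the most abundant of this list, had overlapping groups at 285.38 to 327.29 FPKM in Con versus 160.3 to 300.5 in Abx. Both other HSP90 genes, Hsp90b1 and Trap1, overlapped between groups, with Hsp90b1 at 88.08 to 118.29 FPKM in Con versus 79.68 to 127.3 in Abx.

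Of 16 HSP90 co-chaperones 15 were tested, 10 with a difference above 0 and 5 below (median 0.52). Stip1, the adaptor that joins HSP70 to HSP90 and the most abundant of these, was at 90.21, 77.03 and 99.35 FPKM in Con versus 190.2, 87.19 and 144.61 in Abx, with the groups overlapping through Abx 2. Fkbp5, a co-chaperone of steroid receptors, was at 2.63, 0.05 and 7.17 FPKM in Con versus 20.73, 20.35 and 42.71 in Abx. All Abx values lay above Con, with a fitted log2 difference of 3.12 ± 0.87 (SE, adjusted p = 0.184, limma). Stub1, a ubiquitin ligase that binds HSP70 and HSP90, was at 30.10, 23.04 and 26.19 FPKM in Con versus 63.34, 54.61 and 36.66 in Abx (adjusted p = 0.372, limma). Of 11 exchange factors and HSP70 co-chaperones 9 were tested, 6 above 0 and 3 below (median 0.52). Bag5 alone passed an unadjusted p under 0.05, at 5.40, 0.11 and 12.48 FPKM in Con versus 19.16, 47.09 and 29.54 in Abx (adjusted p = 0.303, limma), and Bag1 was the most abundant.

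Other J-domain genes had fitted differences on both sides of 0. Of 33 other J-domain genes 25 were tested, 13 with a difference above 0 and 12 below (median 0.12). At an unadjusted p under 0.05, Dnajb2 and Dnajc8 were lower in Abx and none was higher. Dnajb2, the most abundant of them, was at 104.05, 206.11 and 133.86 FPKM in Con versus 61.22, 87.77 and 24.84 in Abx (adjusted p = 0.283, limma). Dnajc8 was at 4.77, 2.55 and 3.45 FPKM in Con, against 0.08 or below in Abx (adjusted p = 0.107, limma). Dnaja2, the nearest relative of Dnaja1 in role, was at 58.84, 83.73 and 62.07 FPKM in Con versus 56.18, 43.86 and 52.07 in Abx, also without overlap but with a fitted log2 difference of -0.41 ± 0.29 (SE, adjusted p = 0.680, limma).

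A list of mitochondrial chaperones and proteases was added after the values of Hspd1 and Hspe1 were seen. All 17 were tested, 8 with a difference above 0 and 9 below (median -0.45), and none passed an unadjusted p under 0.05. Their summed level did not follow that median. It was 348.86, 300.53 and 295 FPKM in Con versus 459.21, 356.88 and 434.77 in Abx, higher in Abx without overlap. Hspa9, the mitochondrial HSP70, was at 31.73, 18.36 and 28.68 FPKM in Con versus 1.41, 39.18 and 40.66 in Abx, with a single low library. The cytosolic chaperonin TRiC and prefoldin, which fold actin and tubulin, were tested for 14 of 14 genes, 13 with a difference above 0 and 1 below (median 0.30) and none past the unadjusted threshold. Cct5, the most abundant, was at 177.48, 212.36 and 154.84 FPKM in Con versus 223.44, 241.41 and 302.29 in Abx, without overlap (adjusted p = 0.479, limma).

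**Figure D4:**
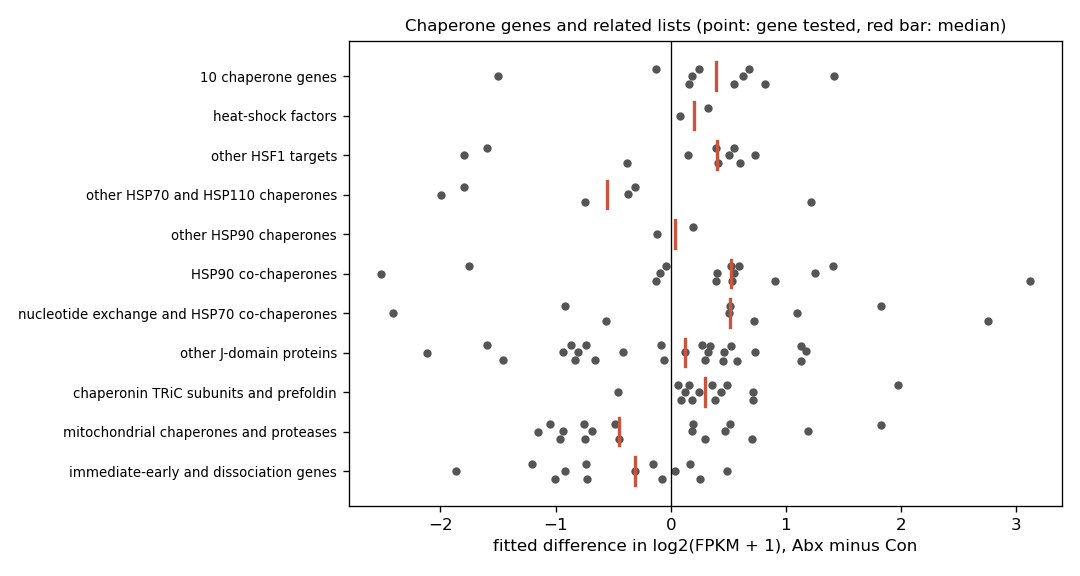
Fitted difference in log2(FPKM + 1), Abx minus Con, of each tested gene (points) in the chaperone set and in related lists, with the median of each list as a red bar. The median was 0.40 for the 10 chaperones, 0.30 for TRiC and prefoldin, 0.12 for other J-domain genes and -0.45 for mitochondrial chaperones and proteases, and points lay on both sides of 0 in most lists.

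Genes that respond to tissue dissociation are given here because heat shock genes can respond to the same handling. Of 14 immediate-early and dissociation genes 13 were tested, 4 with a difference above 0 and 9 below (median -0.31). Their summed level was 8444, 10200 and 13765 FPKM in Con versus 11607, 5558 and 7419 in Abx, and Junb had the highest mean. Egr1 alone was not tested, at 0.01, 0 and 0 FPKM in Con versus 8.3, 0 and 3.42 in Abx. Junb, Atf3, Ier3 and Nr4a1 were lower in Abx at an unadjusted p under 0.05 and none was higher. Atf3, a stress-induced transcription factor, was at 210.17, 341.07 and 487.77 FPKM in Con versus 66.28, 89.82 and 117.91 in Abx (adjusted p = 0.091, limma). The part of handling in the chaperone values was not tested.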

How the data were processed

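SMART-seq libraries of 1000 sorted neonatal lung ILC2s each (3 Abx, 3 Con) were grouped by their sample labels. The authors made the deposited FPKM values with Cutadapt, HISAT2 and StringTie per their methods, which name a human annotation, although the identifiers are mouse. The submitters' processing notes name Bowtie 0.12.2, mm8 and mm9 instead. Of 55394 identifiers, 55134 are in GENCODE M21 (GRCm38), used here for coordinates. Low values did not lie on whole-read steps (26.2% to 30% near a multiple, 20% by chance), so counts were not recovered. The authors used DESeq2, which needs counts. Here limma 3.58.1 (R 4.3.3; lmFit, eBayes with trend, two-sided) was run on log2(FPKM + 1), a pseudocount of 1, over the 8718 genes that reached 1 FPKM in 3 or more libraries, with Benjamini-Hochberg adjustment over all of them. Genes were called at a fold change over 2 and adjusted p under 0.05. The script was tested on simulated data.

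The members and lists were chosen with earlier results of these data known. Named genes are the 10 members, list genes past an unadjusted p under 0.05 or most abundant in their list, the 5 most similar genes, and pseudogene entries, of which some are not reported here. Hsf1, Bag3, Hspb1, Trap1, Hsp90b1, Dnaja2, Hspa9, Egr1 and the cell type markers were named outside that rule, after their values were seen, and some genes the rule names in marker lists are left out. Alternatives were pseudocounts of 0.1 and 0.01, quantile normalization, median centring, rescaling to equal totals, no filter, a mean of at least 5 FPKM, robust variance, an unadjusted p, the replicate block, and each library left out. For the classes they were Dnaja1 counted as inducible, the constitutive class without the mitochondrial pair or as Hspa8 and Hsp90ab1 alone, Hspa1a and Hspa1b summed, and the ratio of summed FPKM. Tables used Python 3.11.15 and pandas 2.3.3.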

Additional observations from a re-analysis of the deposited data

How the results depend on the processing

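No chaperone gene was called under any scaling, pseudocount, filter or left-out library tried (0 to 0), and 2 were (Dnaja1 and Hspd1) when an unadjusted p under 0.05 with a fold change over 2 replaced the adjusted threshold. Over all genes, the 5 calls became 0 with pseudocounts of 0.1 and 0.01, median centring, no filter and the replicate block, 814 with the unadjusted p, and 0 to 2 with a library left out (2 without Con 3 or Abx 2, otherwise 0). The inducible minus constitutive difference of 0.16 became -0.59 with Dnaja1 counted as inducible, 0.75 without the mitochondrial pair, 0.18 against Hspa8 and Hsp90ab1 alone, 0.26 with Hspa1a and Hspa1b summed and 0.29 from summed FPKM, and ranged from -0.29 to 0.42 with a library left out. Direction reversed for Hspa1b without Abx 2 (0.67), Hsph1 without Con 1 (-0.23) or Abx 1 (-0.35), Hspa8 without Con 2 (-0.0093) and Hsp90ab1 without Abx 1 (-0.0173), and for no other chaperone in the settings tried. With a library left out, the range was -0.87 to 0.67 for Hspa1b, -0.35 to 1.79 for Hsph1, -0.0093 to 0.26 for Hspa8 and -0.0173 to 0.49 for Hsp90ab1. Across all settings Hspd1 ranged from 1.25 to 1.74 (adjusted p 0.122 to 0.570) and Dnaja1 from -1.73 to -1.20 (adjusted p 0.111 to 0.582). The count at an unadjusted p under 0.05 was 4, and 2 (Hspd1 and Dnaja1) under quantile normalization and equal totals. Deviations from the group means correlated at -0.020, -0.029 and 0.010 between libraries of the same replicate number. Between libraries of unlike number the range was -0.028 to 0.052. With 3 libraries per group, such deviations cannot settle whether the libraries were paired. The replicate block left 0 chaperones called, with adjusted p of 0.293 for Hspd1 and 0.296 for Dnaja1 (limma). The cause of these shifts was not tested. With depth unknown, counting error could not be separated from the spread between libraries.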
